A study of Mus musculus with 5 samples.

Results

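MicroRNA genes were examined in a profile of the histone H3 mark H3K14ac (lysine 14 acetylated) in mouse blood stem and progenitor cells with and without the acetyltransferase HBO1. The set holds every gene whose mouse symbol starts with Mir and a digit, or with Mirlet7. Host transcripts, whose symbols end in hg, were left out. The rule found 643 of the 27179 genes in the deposited count tables, and it uses names only, not measured values. These genes lay on 20 chromosomes, with 77 on chromosome X, 77 on chromosome 2 and 76 on chromosome 12, and their annotated hairpins span 49 to 134 bp. By the RefSeq annotation of GRCm38.p6, 276 of them sit in an intron and 102 over an exon of a gene on the same strand, 59 lie inside a gene on the opposite strand and 206 lie outside other genes. Genes whose flanks overlap form 437 loci, of which 369 hold 1 microRNA gene and the largest holds 40.

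A microRNA gene is read as part of a long primary transcript, which may start at a promoter of its own or at that of a host gene, often far from the hairpin. Drosha and Dgcr8 cut the hairpin out of this transcript, Xpo5 carries it out of the nucleus, Dicer1 trims it, and an Argonaute protein holds the mature strand, which pairs with messenger RNAs mainly through its seed. In blood formation, miR-223 is known from myeloid cells, miR-142 from nearly all blood cells, miR-150 from lymphocytes, and miR-10a and miR-196b lie within the Hox clusters. H3K14ac is a mark of active chromatin, and HBO1, also called KAT7, is a main enzyme that writes it.

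H3K14ac was mapped by CUT&Tag, in which an antibody (abcam ab52946) guides the Tn5 transposase to cut and tag the DNA around the mark. All libraries came from LSK cells, a stem and progenitor fraction sorted from the bone marrow of male C57BL/6 mice. Both groups had Mx1-cre induced with poly(I:C) and carry the label T/+, which the labels do not explain. The 2 control libraries are heterozygous (Hbo1def/+; T/+) and the 2 knockout libraries homozygous (Hbo1def/def; T/+), so the controls also carry a def allele. Mx1-cre responds to interferon and is not restricted to blood cells. The sources used here give neither the animals' age nor the time after poly(I:C). Nothing in the labels says that the libraries of a group came from separate animals, so the p-values reflect the spread among 4 libraries, part of which may be technical. In bulk samples such as these, fewer cells with a mark and less of the mark per cell cannot be told apart. The library made with an antibody against HBO1 was not analysed here.

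The authors counted reads per gene over 3 region classes: the gene body, and 5 kb on either side of it, called the upstream and the downstream region. Library totals ranged from 869859 to 1164409 reads in upstream regions, from 4723549 to 12386891 in gene bodies and from 677213 to 1260351 in downstream regions. The gene body totals of both knockout libraries lay below those of both controls. At the targeted gene, Kat7, gene body values were 30.7 and 30.1 CPM (reads scaled to library size) in the controls and 88.2 and 39.1 in the knockouts. The sources used here do not give the deleted part of Kat7, and acetylation over the rest of the gene does not check the genotype. Of the LSK markers Kit, Ly6a, Cd34 and Flt3, only Flt3 rose upstream, by a log2 fold of 2.26 (edgeR adjusted p = 0.000466). None of 16 markers of other bone marrow cell types passed the test upstream, and Cd3g, Cd79a and Trac rose downstream. Over gene bodies Flt3 rose by 1.53 (edgeR adjusted p = 5.2e-05) and the endothelial marker Cdh5 fell by 0.86 (edgeR adjusted p = 0.0168), with no call at the other 12 of those 16 that were tested. The part of these changes in the results for microRNA genes was not tested.

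The mature sequences of the microRNAs on which the results turn are from RefSeq (GRCm38.p6), which held a mature sequence for 552 of the 643 genes and a hairpin for 525. Capitals mark the seed, bases 2 to 8 from the 5′ end. The first set is shown because its genes gained H3K14ac in the knockout libraries, relative to the other regions of the class, on at least 1 side. Both sides did so only at Mir142. Most of the other sides could not be tested, and miR-24-3p also comes from Mir24-1, which was tested on neither side:
miR-142a-3p: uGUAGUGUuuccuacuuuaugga
miR-223-3p: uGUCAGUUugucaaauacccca
miR-21a-5p: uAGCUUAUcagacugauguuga
miR-22-3p: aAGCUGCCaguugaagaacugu
miR-23a-3p: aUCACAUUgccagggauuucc
miR-24-3p: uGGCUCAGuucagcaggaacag
miR-10a-5p: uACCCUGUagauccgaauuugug
let-7i-5p: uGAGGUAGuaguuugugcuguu
The second set is shown because the upstream regions of its genes lost H3K14ac relative to the other regions of that class, and of these genes only Mir184 also fell downstream:
miR-205-5p: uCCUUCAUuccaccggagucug
miR-184-3p: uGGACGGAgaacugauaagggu
miR-218-5p: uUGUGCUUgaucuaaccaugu
miR-138-5p: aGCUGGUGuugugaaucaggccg
miR-204-5p: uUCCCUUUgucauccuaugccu
miR-455-3p: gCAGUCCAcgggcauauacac

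How much of a flank was counted depended on what else lies beside the gene. A flank was called unshared where no other counted gene's region of the same class covers it, by RefSeq gene models. Of 150 genes with no unshared base upstream, 138 had 0 reads in all 4 libraries. The 291 genes with all 5000 bp unshared had a median of 139 reads over the 4 libraries, and none of them had 0. Downstream, 144 of 151 genes with no unshared base had 0 reads, against none of 289 with a whole unshared flank, whose median was 154. Shared bases thus held almost no counted reads, and clusters of microRNA genes could be read only at their edges. Over gene bodies, 430 of 643 genes had 0 reads and none had more than 47.

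**Figure D1:**
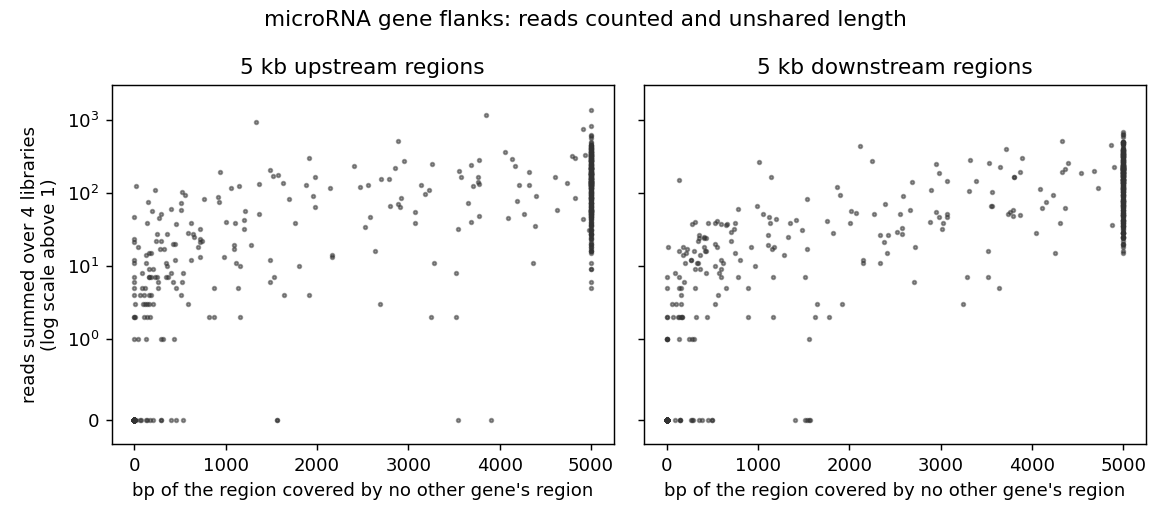
Reads summed over the 4 libraries (y axis, logarithmic above 1) against the number of bp of each microRNA gene's 5 kb upstream (left) or downstream (right) region that no other gene's region covers (x axis). Each point is 1 of 643 genes. The column at 5000 bp holds 291 genes upstream and 289 downstream, none of them at 0, while most genes at 0 bp have 0 reads.

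After the filter on low counts, 350 of 643 genes were tested upstream, 330 downstream and 5 over the gene body. A gene can pass this filter through one group alone, and the counts describe the genes that passed, not all microRNA genes. Upstream, 32 microRNA genes rose in the knockout libraries and 78 fell, which is 9.14% and 22.3% of those tested (edgeR, adjusted p under 0.05 over all genes). Among all 23200 genes tested upstream, 24.0% rose and 14.3% fell. The median log2 fold was -0.56 for microRNA genes and -0.09 for all genes. Both knockout libraries lay above both controls at 60 microRNA genes (17.1%, against 37.8% of all genes) and below both at 191 (54.6%, against 39.9%).

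Downstream, 41 microRNA genes rose and 11 fell, which is 12.4% and 3.33% of those tested. Among all 21566 genes tested downstream, 10.8% rose and 2.29% fell, so the downstream shares lie near those of all genes. The median log2 fold was -0.09 for microRNA genes and -0.03 for all genes. Downstream values did not overlap at 109 genes in the higher direction (33.0%, against 29.9% of all genes) and at 115 in the lower (34.8%, against 32.7%). Over the gene body 3 of 5 genes rose and 0 fell by edgeR, with 0 also at an unadjusted p under 0.05, where 23.1% of 21393 genes rose and 15.2% fell. DESeq2 called 0 of these 5 genes in either direction, with 2 higher and 0 lower at an unadjusted p under 0.05. The 3 that rose, named after their values were seen, were Mir23a with 1 and 0 reads in the controls and 26 and 8 in the knockouts, Mir484 with 1 and 2 against 18 and 13, and Mir196b with 0 and 4 against 7 and 8. All 3 passed the filter on low counts through the knockout libraries alone, so their direction followed from the filter. The share of 3 of 5 is therefore not a result about microRNA genes. The rises over gene bodies numbered 1 without knockout replicate 1.

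The balance of rises and falls depended on the scaling. Each region class was scaled on its own with the trimmed mean of M-values (TMM), which sets the typical region of that class to no change. With 1 scaling for all 3 classes, taken from the pooled totals, the upstream median of all genes moved by 0.56 on the log2 scale. The upstream median of microRNA genes became -0.02 and their counts 44 higher and 9 lower, close to the 42 higher and 10 lower downstream under that scaling. With factors from olfactory and vomeronasal receptor genes alone, which are silent in blood cells, the upstream median of all genes moved by 1.01 and that of microRNA genes became 0.38, so its sign turned. Then 41 microRNA genes rose and 0 fell by edgeR, with 3 lower at an unadjusted p under 0.05. Downstream the shift was 0.37, and the median of microRNA genes became 0.30 with 32 higher and 0 lower, and 12 lower at an unadjusted p under 0.05. The medians of all genes were 0.46 upstream and -0.04 downstream with pooled totals, and 0.92 and 0.34 with receptor-gene factors. The share of all genes called is not given for the alternative scalings, here or below. Counts of calls under them are therefore not set against all genes. All 78 genes that fell upstream kept a negative log2 fold under both scalings, with medians of -0.97 and -0.55, and 9 and 0 of them kept their call. A fall upstream is therefore a fall relative to the other regions of its class, which holds for every median and every fall given here. The rises are relative in the same way, as the sources used here give no spike-in. A rise thus does not measure a gain in the amount of the mark.

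**Figure D2:**
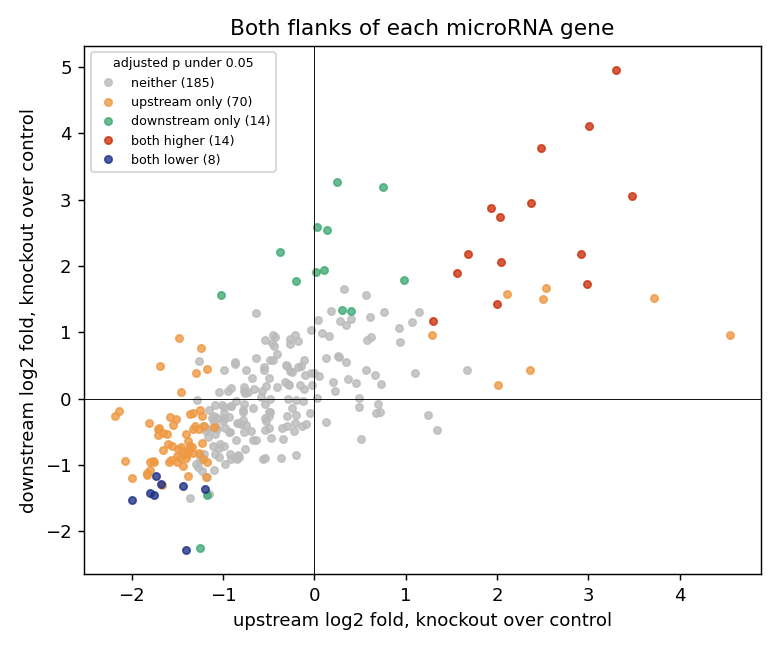
Log2 fold, knockout over control, of the upstream (x axis) and downstream (y axis) 5 kb regions of the 291 microRNA genes tested in both. Colours mark which regions passed an adjusted p of 0.05. In 14 genes both flanks rose, in 8 both fell, and no gene had calls in opposite directions.

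The flanks of one gene had log2 folds of the same sign in most cases. Over the 291 genes tested on both sides, Pearson's r of the 2 log2 folds was 0.74 and Spearman's rho 0.74, and 220 (75.6%) had the same sign. Over the 19992 other genes tested on both sides, r was 0.43, rho 0.50 and 68.9% had the same sign. Among the 198 whose flanks were both unshared, r was 0.70, rho 0.72 and 150 had the same sign, against 0.45, 0.52 and 70.0% in 12727 such other genes. The 2 flanks of a microRNA gene are separated only by its hairpin of 49 to 134 bp, and those of another gene by its whole body. The 2 sets are therefore not matched for the distance between flanks. The points share the 4 libraries, the genes are not independent replicates, and the difference between microRNA genes and other genes was not tested. Both flanks rose in 14 genes (4.81%, against 4.66% of other genes) and fell in 8 (2.75%, against 1.27%). Calls in opposite directions were seen in 0 microRNA genes and 0.265% of other genes. A fall upstream with no call downstream was seen in 62 genes, the most frequent of the mixed patterns.

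MicroRNA genes known from blood cells were among those that rose. Of 78 such genes listed, 74 were found and 38 were tested upstream. Of those tested, 10 rose (26.3%, against 24.0% of all genes) and 4 fell (10.5%, against 14.3%), so the upstream shares lie near those of all genes. The median log2 fold was 0.22, against -0.09 for all genes, and it became 0.03 with library totals. Downstream 6 of 27 rose (22.2%, against 10.8% of all genes) and 0 fell, with a median of 0.43 against -0.03, and 1 fell when library totals were used for scaling. The listed Mir146a and Mir486a are named Mir146 and Mir486 in the tables and were at first not matched. With both added, 10 of 40 rose and 5 fell upstream, with a median of 0.13 that became -0.04 with library totals, and downstream 6 of 29 rose and 0 fell. The rises upstream were at Mir142, Mir21a, Mir223, Mir22, Mir23a, Mir24-2, Mir146b, Mir26b, Mir320 and Mir33, and those downstream at Mir142, Mir10a, Mir26b, Mir320, Mir196b and Mir484. With pooled totals the upstream counts were 12 higher and 0 lower, and with receptor-gene factors 11 and 0.

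Mir142, whose product is abundant across blood lineages, lies outside other genes at chr11:87756864-87756927 on the plus strand, 1330 bp from the start of Tspoap1. Only 1330 bp of its upstream region were unshared, and its downstream region holds the start of another gene. Its upstream region held 53.8 and 57.2 CPM in the controls and 644 and 249 CPM in the knockouts. Its downstream region held 28.2 and 25.5 CPM in the controls and 742 and 193 CPM in the knockouts. Both knockouts stood above both controls on both sides, and knockout replicate 1 was the highest. Upstream the log2 fold was 3.01 ± 0.90 (SE, edgeR adjusted p = 0.00489), and downstream 4.11 ± 1.02 (edgeR adjusted p = 0.0115). The upstream call was lost without control replicate 1 (2.97), control replicate 2 (3.05) or knockout replicate 1 (2.21), and the downstream call without control replicate 1 (4.18) or 2 (4.04). Both calls were also lost with receptor-gene factors.

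Mir21a, the gene of a microRNA widely induced by growth signals, lies over an exon of Vmp1 at chr11:86584067-86584158 on the minus strand. Its unshared upstream region held 62.5 and 88.7 CPM in the controls and 971 and 386 CPM in the knockouts. This is the highest value in any library among the members named here, and the groups did not overlap. Its log2 fold came to 3.16 ± 1.09 (edgeR adjusted p = 0.015). The call was lost without control replicate 1 (2.94), control replicate 2 (3.44) or knockout replicate 1 (2.39), and with receptor-gene factors. Vmp1, which codes for a membrane protein of autophagy, rose in all 3 region classes, with log2 folds of 1.19 upstream, 1.98 over the gene body and 2.84 downstream.

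Mir223, the myeloid microRNA gene, lies over an exon of F630028O10Rik at chrX:96242817-96242926 on the plus strand. The start of that transcript is 2891 bp away, inside the upstream region. The region held 44.3 and 36.5 CPM in the controls and 331 and 140 CPM in the knockouts, a log2 fold of 2.54 ± 0.69 (edgeR adjusted p = 0.00171). The 2 groups did not overlap, and the host transcript rose as well, by 2.86 over its gene body. The call was lost without control replicate 1 (2.69), control replicate 2 (2.41) or knockout replicate 1 (1.83).

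Mir22 lies over an exon of its host transcript Mir22hg at chr11:75463716-75463810 on the plus strand, with 1485 bp of its upstream region unshared. That region held 10.4 and 3.31 CPM in the controls and 172 and 45.4 CPM in the knockouts. Both knockout values stood far above both controls, and the log2 fold came to 3.97 ± 0.58 (edgeR adjusted p = 2.78e-09). The body of Mir22hg rose by 3.23. Left out singly, every library ended the call of Mir22, with log2 folds from 2.76 without knockout replicate 1 to 4.99 without control replicate 1.

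The Mir23a, Mir27a and Mir24-2 cluster, known from myeloid and lymphoid fate choice, lies at chr8:84208518-84208921 on the plus strand, and Mir3074-2 is annotated over Mir24-2 on the minus strand. Because the hairpins share their flanks, only 154 bp of the upstream region of Mir23a and 143 bp of that of Mir24-2 were unshared. Mir23a had 3 upstream reads over both controls and 71 over both knockouts, a ratio of 31.3 with an exact 95% counting interval of 10.3 to 155. Mir24-2 had 3 and 35 reads, a ratio of 15.4 with an interval of 4.87 to 78.5. Both genes passed the filter on low counts through the knockout libraries alone, so the direction of their calls followed from the filter. Mir3074-2, whose upstream region is unshared and covers the far side of the cluster, gave the deeper reading.
Its upstream region held 16.5 and 17.4 CPM in the controls and 251 and 85.3 CPM in the knockouts. Its downstream region, on the side where the cluster is transcribed from, held 6.26 and 16.0 CPM in the controls and 569 and 131 CPM in the knockouts. The log2 folds were 3.30 ± 0.62 upstream (edgeR adjusted p = 5e-06) and 4.96 ± 0.92 downstream (edgeR adjusted p = 0.00175). The groups were far apart on both sides of the cluster. The upstream call of Mir3074-2 was lost without control replicate 1 (3.27), control replicate 2 (3.34) or knockout replicate 1 (2.36), and the downstream call without control replicate 1 (4.43) or 2 (5.76). Mir23a lost its upstream call without knockout replicate 1 (4.12), and Mir24-2 without control replicate 1 (3.48) or knockout replicate 2 (4.56). Without knockout replicate 1, Mir24-2 did not pass the filter on low counts.

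**Figure D3:**
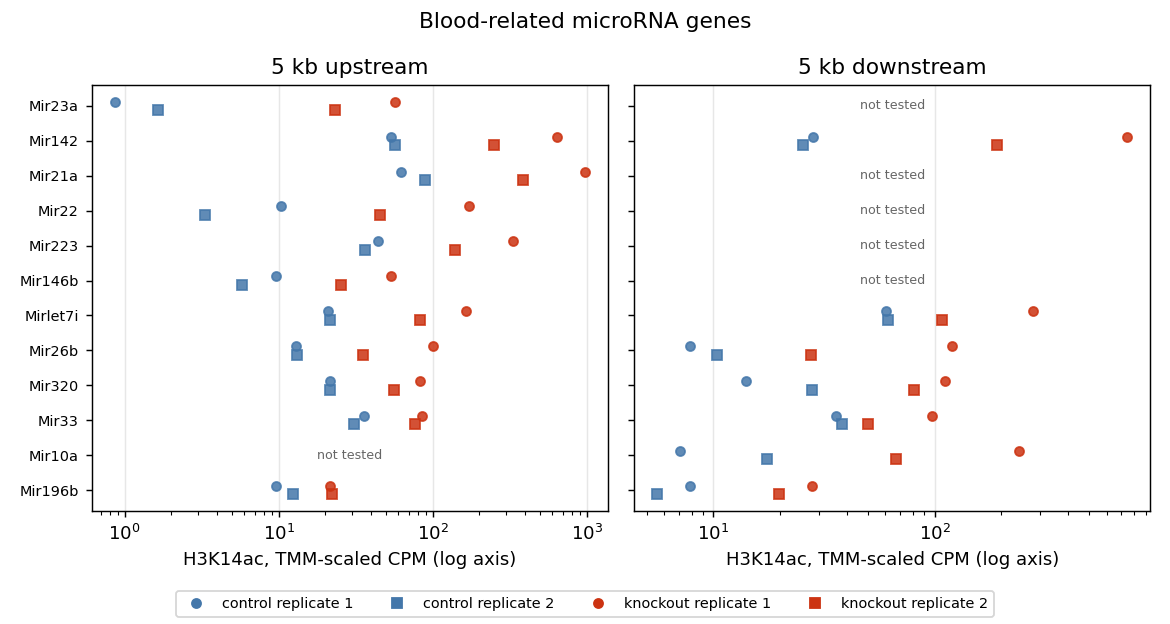
H3K14ac in TMM-scaled CPM (x axis, logarithmic) at 12 microRNA genes, in the 5 kb upstream (left) and downstream (right) regions, with 1 point per library. The genes are from the blood list, except Mirlet7i of the let-7 list, and each rose on at least 1 side. Blood-listed genes with no rise on either side are not drawn, so the shared direction follows from this choice. Regions not tested have no points. Controls are blue and knockouts red. At every region shown both knockout libraries lie above both controls, from 44.3 and 36.5 against 331 and 140 CPM at Mir223 to 9.55 and 12.4 against 21.6 and 22.2 CPM at Mir196b, which passed the test downstream but not upstream.

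Mir10a and Mir196b, which lie among Hox genes, rose on their downstream side. Mir10a, in an intron of Hoxb3 at chr11:96317165-96317274 on the plus strand, held 7.04 and 17.6 CPM in the controls and 241 and 67.3 CPM in the knockouts. The groups did not overlap, the log2 fold came to 3.62 ± 0.58 (edgeR adjusted p = 0.000871), and the start of Hoxb4 lies 1102 bp away. Its call was lost without control replicate 1 (3.11). Mir196b, beside Hoxa9 at chr6:52230081-52230165 on the minus strand, held 7.83 and 5.59 CPM in the controls and 28.0 and 19.8 CPM in the knockouts downstream. Its log2 fold was 1.79 ± 0.56 (edgeR adjusted p = 0.043), and its upstream region had 0.98 ± 0.54 with no call. The downstream region of Mir196b passed the filter on low counts through the knockout libraries alone, so the direction of that call followed from the filter. The downstream call of Mir196b was lost without control replicate 1 (2.04), control replicate 2 (1.57) or knockout replicate 1 (1.54), with receptor-gene factors, with library totals and with DESeq2.

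Several further blood-related genes rose, with sizes given as log2 folds. Mir26b, in an intron of the phosphatase gene Ctdsp1, rose by 2.37 ± 0.49 upstream and 2.95 ± 0.57 downstream (edgeR adjusted p = 3.09e-05 and 0.00221), and Ctdsp1 itself by 3.13 upstream. Mir320, 39 bp from the start of the RNA polymerase subunit gene Polr3d, rose by 1.68 ± 0.48 and 2.18 ± 0.39. Mir33, in an intron of the sterol regulator gene Srebf2, rose by 1.28 ± 0.49 upstream, and Mir146b by 2.35 ± 0.54. Mir484, 348 bp from the start of Marf1, rose downstream by 3.27 ± 0.56 but had 0.25 ± 0.52 upstream. In these genes every call was lost without at least 1 library: Mir26b upstream without control replicate 1 (2.36), control replicate 2 (2.38) or knockout replicate 1 (1.47) and downstream without knockout replicate 1 (1.59), Mir320 upstream without control replicate 1 (1.69), control replicate 2 (1.68) or knockout replicate 1 (1.42) and downstream without control replicate 1 (1.77), and Mir484 without control replicate 1 (3.36) or 2 (3.18). Mir33 and Mir146b lost their calls when any 1 of the 4 libraries was left out, with log2 folds from 1.18 to 1.51 and from 1.77 to 2.94, and Mir33 also with library totals.

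Other microRNA genes prominent in blood showed no call. Mir155, induced in activated immune cells, held 28.6 and 25.7 CPM in the controls and 22.7 and 34.3 CPM in the knockouts upstream, and the groups overlapped. Mir150 had a log2 fold of -0.13 ± 0.51, and Mir126a, a stem cell and endothelial microRNA gene in an intron of Egfl7, 0.20 ± 0.46. Mir146, the gene of miR-146a, had -1.09 ± 0.51 upstream. The 4 blood-listed genes that fell upstream were Mir30d (-1.30), Mir129-1 (-1.25), Mir100 (-1.19) and Mir652 (-1.18). All 4 lost their calls when any 1 library was left out, with log2 folds from -1.50 to -0.84, and with pooled totals or receptor-gene factors no gene of the list fell. Mir486, an erythroid microRNA gene in an intron of Ank1, held 160 and 92.8 CPM in the controls and 22.7 and 59.8 CPM in the knockouts upstream. It fell by 1.61 ± 0.56 (edgeR adjusted p = 0.0161), and lost its call when any 1 library was left out (-2.31 to -1.03) and with pooled totals or receptor-gene factors. The Mir17 to Mir92-1 cluster could not be read, since nearly all of its flanks are shared.

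The let-7 genes, whose products restrain growth and are held low in many stem cells, did not move together. Of 12 found, 4 were tested upstream, and 1 rose, 1 fell and 2 had no call. Mirlet7i, which lies outside other genes at chr10:122985640-122985724 on the minus strand and 90781 bp from the nearest other start, held 20.8 and 21.5 CPM in the controls and 164 and 83.1 CPM in the knockouts upstream. The knockouts stood well above the controls, at a log2 fold of 2.53 ± 0.55 (edgeR adjusted p = 7.54e-05), while downstream it was 1.66 ± 0.57 (edgeR adjusted p = 0.0636). Mirlet7a-2, in an intron of Mir100hg at chr9:41536716-41536811 on the plus strand, held 52.9 and 43.1 CPM in the controls and 14.8 and 14.4 CPM in the knockouts upstream. The groups were apart in the lower direction, at a log2 fold of -1.71 ± 0.49 (edgeR adjusted p = 0.00336), and Mir100hg fell as well, by 0.92 over its gene body. The call of Mirlet7i was lost without control replicate 1 (2.51), control replicate 2 (2.56) or knockout replicate 1 (2.01). That of Mirlet7a-2 was lost when any 1 library was left out, with log2 folds from -1.85 to -1.54, and with pooled totals or receptor-gene factors.

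Rises outside the blood list were also large. Mir702, over an exon of the collagen-modifying enzyme gene Plod3, held 2.60 and 5.80 CPM in the controls and 152 and 51.0 CPM in the knockouts upstream, a log2 fold of 4.55 ± 0.60 (edgeR adjusted p = 8.64e-11). Its upstream region holds the start of another gene. That region passed the filter on low counts through the knockout libraries alone, so the direction of its call followed from the filter. Mir1894, over an exon of the phosphatase regulator gene Ppp1r10, held 14.9 and 25.5 CPM in the controls and 589 and 173 CPM in the knockouts downstream. The knockouts were again the higher group, at a log2 fold of 4.23 ± 0.89 (edgeR adjusted p = 0.00388), and the body of Ppp1r10 rose by 3.37. Mir702 lost its call without control replicate 1 (4.11) or knockout replicate 1 (3.59), and Mir1894 without control replicate 1 (3.89) or 2 (4.66).

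MicroRNA genes restricted to other tissues made up part of the falls. Of 58 genes listed for muscle, neuronal, epithelial, pancreatic and other lineages, 56 were found and 29 tested upstream. Of those, 14 fell (48.3%, against 14.3% of all genes) and 1, Mir200c, rose, with a median log2 fold of -1.18 against -0.09 for all genes. Among all microRNA genes tested upstream 22.3% fell, with a median of -0.56. Of those over 50 kb from another start 37.9% fell, so part of this contrast is shared by microRNA genes outside the list. With pooled totals 1 of the 29 fell and 1 rose, with a median of -0.62, and with receptor-gene factors 0 fell and 1 rose, with a median of -0.21. Downstream 2 of 28 fell (7.14%, against 3.33% of microRNA genes and 2.29% of all genes), Mir184 and Mir1a-1, and 1 rose, Mir141. The median there was -0.75, against -0.03 for all genes.

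Mir205, an epithelial microRNA gene in an intron of Mir205hg at chr1:193507463-193507530 on the minus strand, held 356 and 210 CPM in the controls and 72.7 and 93.1 CPM in the knockouts upstream. The groups did not overlap, and the log2 fold came to -1.77 ± 0.75 (edgeR adjusted p = 0.0489). Mir184, a gene of the eye lens and cornea, lies outside other genes at chr9:89802260-89802328 on the minus strand. It held 150 and 92.8 CPM in the controls and 27.3 and 44.3 CPM in the knockouts upstream, and 139 and 102 CPM in the controls and 37.3 and 50.1 CPM in the knockouts downstream. Both flanks were lower in both knockouts, with log2 folds of -1.76 ± 0.55 (edgeR adjusted p = 0.00748) and -1.45 ± 0.41 (edgeR adjusted p = 0.0274). As raw counts, its 2 flanks were nearly equal, with 173 and 177 reads in control replicate 1, 112 and 128 in control replicate 2, 24 and 20 in knockout replicate 1 and 40 and 38 in knockout replicate 2, so the 2 log2 folds differ mainly through the scaling of their classes. When any 1 library was left out, the upstream calls of both genes were lost, with log2 folds from -2.10 to -1.34 for Mir205 and from -2.06 to -1.37 for Mir184. The downstream call of Mir184 was lost without control replicate 1 (-1.22), control replicate 2 (-1.66) or knockout replicate 1 (-1.26).

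The 2 copies of miR-218-5p lie in introns of the axon guidance genes Slit2 and Slit3, and both fell. Mir218-1, at chr5:48223942-48224051 on the plus strand, held 48.6 and 34.0 CPM in the controls and 7.96 and 22.2 CPM in the knockouts upstream. Mir218-2, at chr11:35616816-35616925 on the plus strand, held 148 and 102 CPM in the controls and 26.1 and 45.4 CPM in the knockouts. In both genes knockout replicate 1 was the lowest library, and the log2 folds were -1.44 ± 0.50 (edgeR adjusted p = 0.015) and -1.80 ± 0.56 (edgeR adjusted p = 0.00658). The body of Slit3 fell by 1.21. The 2 copies of miR-138-5p, a neuronal microRNA, fell in the same way, with log2 folds of -1.66 ± 0.53 at Mir138-1 and -1.58 ± 0.53 at Mir138-2 (edgeR adjusted p = 0.00827 and 0.0128). All 4 genes lost their calls when any 1 library was left out, with log2 folds between -2.20 and -0.85, and with receptor-gene factors.

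Further tissue-restricted genes fell upstream. The log2 folds were -1.69 ± 0.50 at Mir375 of the pancreatic islet, -1.52 ± 0.49 at Mir204 of the eye, in an intron of Trpm3, and -1.44 ± 0.48 at Mir182 of sensory cells. Of the muscle microRNA genes, Mir133a-2 (-1.51 ± 0.55), Mir133b (-1.33 ± 0.47) and Mir208b (-1.26 ± 0.52) fell upstream, and Mir1a-1 (-1.17 ± 0.36) fell downstream. Mir1a-1 and Mir133a-2 share the host transcript Mir1a-1hg, which fell by 1.21 both upstream and over its body. The 6 upstream calls were lost when any 1 library was left out, with log2 folds between -2.51 and -0.74, and that of Mir1a-1 without control replicate 1 (-1.23), control replicate 2 (-1.11) or knockout replicate 2 (-0.80). With receptor-gene factors none of these 7 genes kept its call.

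**Figure D4:**
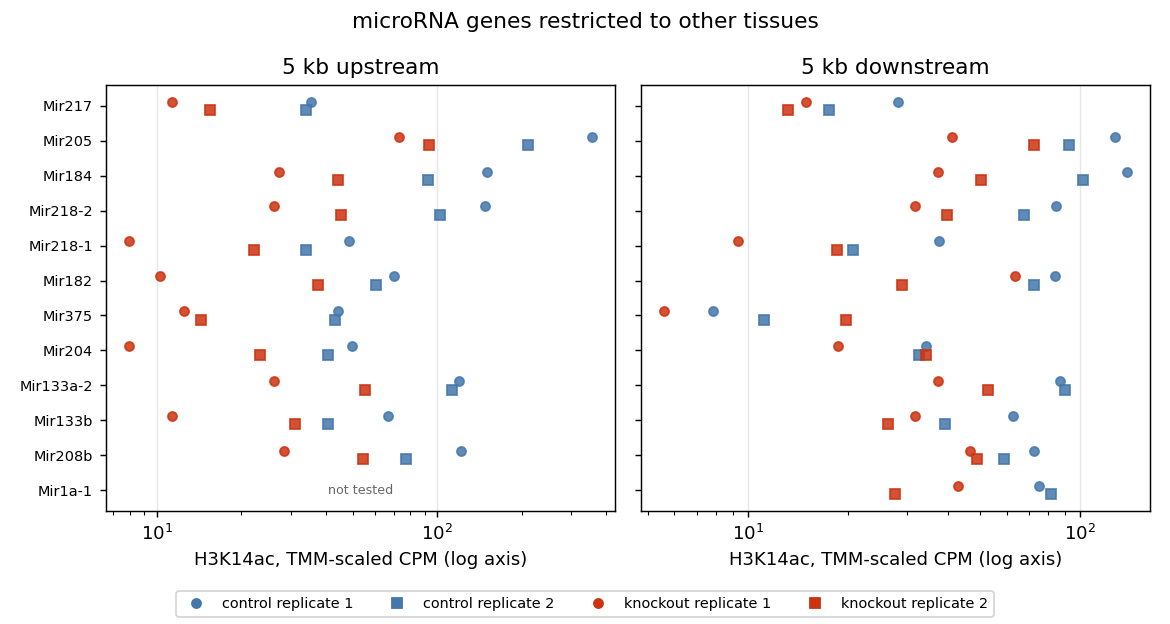
H3K14ac in TMM-scaled CPM (x axis, logarithmic) at 12 microRNA genes restricted to tissues other than blood, in the 5 kb upstream (left) and downstream (right) regions, with 1 point per library. Each gene fell on at least 1 side, so the shared direction follows from this choice. Listed genes without a fall are not drawn, among them Mir200c, which rose upstream. Mir1a-1 was not tested upstream and has no points there. Upstream every knockout point (red) lies below both control points (blue) of its gene, as at Mir205 with 356 and 210 against 72.7 and 93.1 CPM. Downstream the groups lie closer and overlap at Mir375 and Mir204.

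Among upstream regions above the median level of those tested, the largest fall was at Mir455, a cartilage microRNA gene in an intron of the collagen gene Col27a1, at chr4:63256851-63256932 on the plus strand. It held 263 and 171 CPM in the controls and 33.0 and 75.3 CPM in the knockouts. The knockouts were lower in both libraries, at a log2 fold of -1.998 ± 0.68 (edgeR adjusted p = 0.0129). Col27a1 fell by 1.34 over its body. The call of Mir455 was lost when any 1 library was left out (-2.56 to -1.47), with pooled totals and with receptor-gene factors.

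The Dlk1-Dio3 cluster on chromosome 12, an imprinted run of maternally expressed microRNA genes, was mostly unreadable. Of 50 genes found, 5 were tested upstream, and 3 of them fell (14.3% of all genes did) and 0 rose (24.0% of all genes), with a median log2 fold of -1.37 against -0.09 for all genes. Mir493 had a log2 fold of -1.59 ± 0.52, Mir3072 -1.59 ± 0.50 and Mir882 -1.37 ± 0.48. Mir770, over an exon of the imprinted transcript Meg3, fell downstream by 1.45 ± 0.38 (edgeR adjusted p = 0.0151). The host transcripts Meg3 and Mirg fell over their bodies by 1.02 and 1.25. With pooled totals or receptor-gene factors 0 of the 5 upstream regions fell, and with library totals 5 did. The downstream call of Mir770 was lost without control replicate 1 (-1.28), and the upstream calls of Mir493, Mir3072 and Mir882 when any 1 library was left out (-1.90 to -0.98).

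MicroRNAs with the same seed can come from genes whose flanks went opposite ways. The seeds were compared over genes tested upstream that have a mature sequence in RefSeq, and the pairs named were chosen after their values were seen. No such sequence was held for Mir133a-2 or for the 5p arm of Mirlet7a-2, which both fell upstream. These are therefore missing from the counts of seeds below. The arms of a hairpin were counted as separate seeds, so the same genes can enter more than once, as Mir128-1 and Mir128-2 do. The seeds counted are therefore not independent families. Of 41 seeds found at 2 or more tested loci, 20 had at least 1 call, 2 had calls in both directions, 3 (those of Mir138-1, Mir218-1 and the 5p arm of Mir455) had 2 or more falls and no rise, and 0 had 2 or more rises. The sequences below share their seed within each pair and come from genes with different calls:
let-7i-5p: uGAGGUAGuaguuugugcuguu
miR-1961: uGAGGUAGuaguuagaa
miR-200c-3p: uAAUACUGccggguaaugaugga
miR-200b-3p: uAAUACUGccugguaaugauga
miR-26b-5p: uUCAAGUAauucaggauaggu
miR-26a-5p: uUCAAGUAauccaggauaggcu
Mirlet7i rose and Mir1961, inside Shroom3 on the opposite strand, fell by 1.41 ± 0.59 (edgeR adjusted p = 0.0471). The let-7 genes Mirlet7g (-0.50 ± 0.48) and Mirlet7c-1 (-1.16 ± 0.67) had no call. Mir200c held 13.0 and 3.31 CPM in the controls and 30.7 and 15.5 CPM in the knockouts, and rose by 1.50 ± 0.55 (edgeR adjusted p = 0.0237). Mir200b, of the same epithelial family, held 23.4 and 30.7 CPM in the controls and 11.4 and 7.76 CPM in the knockouts, and fell by 1.49 ± 0.55 (edgeR adjusted p = 0.0222). The groups did not overlap in either gene, though the lowest knockout of Mir200c lay close to its highest control. Mir26b rose, and the 2 genes of miR-26a, Mir26a-1 and Mir26a-2, had no call, with 0.69 ± 0.45 and -0.30 ± 0.54. The calls of Mir1961, Mir200b and Mir200c were lost when any 1 library was left out, with log2 folds of -1.77 to -0.98, -1.75 to -1.10 and 0.82 to 2.76. The falls of Mir1961 and Mir200b were also lost with pooled totals or receptor-gene factors, and the rise of Mir200c with library totals.

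The genes that rose and those that fell lay in different places. Of the 32 that rose upstream, 18 had the start of a gene that is not a microRNA gene inside the counted 5 kb, against 1 of the 78 that fell, Mir675 (-1.81 ± 0.66), whose call was lost when any 1 library was left out (-2.11 to -1.42). Where the upstream region held such a start, 18 of 45 tested genes rose and 1 fell, with a median log2 fold of 0.75. Among all other genes with a second start in that region, 50.8% of 2731 rose and 5.20% fell, with a median of 1.20. Where it held none, 14 of 305 microRNA genes rose (4.59%) and 77 fell (25.2%), with a median of -0.75, while 21.3% of 18728 other genes rose and 15.2% fell, with a median of -0.20. Most other genes have a start of their own at the edge of this region, and a microRNA hairpin does not. The part of this in the difference was not tested. Downstream, 13 of 30 genes with a start in the region rose (43.3%) and 0 fell. Among 2892 other genes with such a start, 46.0% rose and 0.380% fell, so the shares lie near each other. Without a start, 28 of 300 microRNA genes rose (9.33%) and 11 fell (3.67%), against 4.73% and 2.56% of 16947 other genes. A start can still lie on the other side of the short hairpin, and 32 of the 41 downstream rises lay within 5 kb of one. In other genes the whole gene body separates the downstream region from the gene's own start. These sets are therefore not matched, and the part of this in the difference was not tested.

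The distance to the nearest start of another gene gave the same order. Distances were computed for microRNA genes only, so this order is not set against other genes and may not be particular to microRNA genes. Upstream, 19 of 67 genes within 5 kb of a start rose and 4 fell. From 5 to 50 kb, 11 of 180 rose and 35 fell, and beyond 50 kb 2 of 103 rose and 39 fell, with medians of 0.25, -0.49 and -1.11. Downstream, 32 of 82 genes within 5 kb rose and 1 fell, and beyond 50 kb 2 of 98 rose and 5 fell, with medians of 0.96 and -0.45. The 2 that rose upstream beyond 50 kb were Mirlet7i and Mir1904 (1.30 ± 0.47), in an intron of Pde4d. The call of Mir1904 was lost when any 1 library was left out (1.16 to 1.59) and with library totals.

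**Figure D5:**
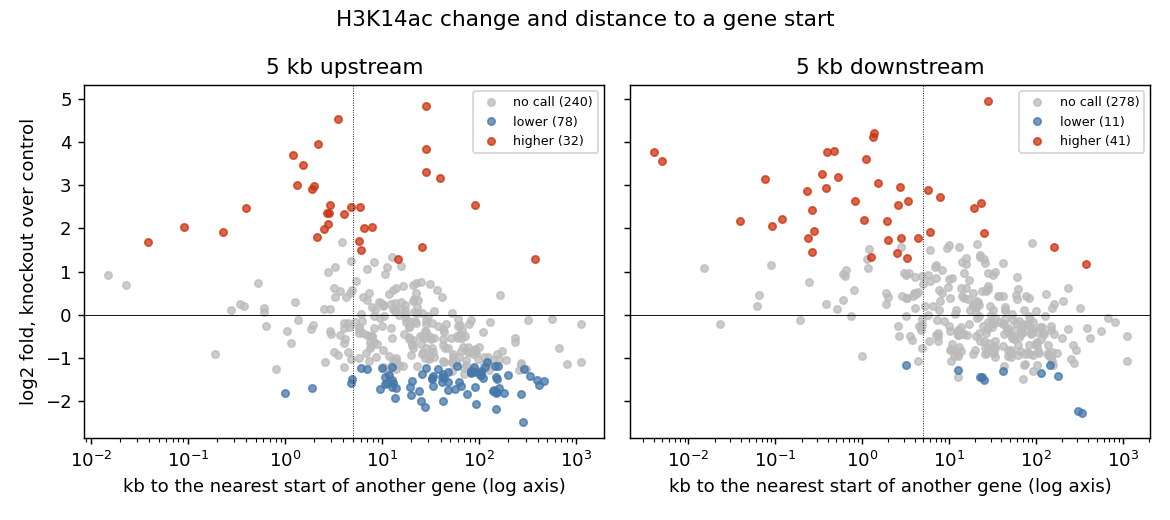
Log2 fold, knockout over control (y axis), of the upstream (left) and downstream (right) 5 kb regions against the distance in kb from the microRNA gene to the nearest start of another gene (x axis, logarithmic). Red points rose and blue points fell at an adjusted p of 0.05, and the dotted line marks 5 kb. Of the 32 upstream rises 19 lie left of the line, and of the 78 upstream falls 4 do.

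Base composition moved with the calls. The upstream regions of genes that rose had a median GC content of 49.7%, those with no call 46.1% and those that fell 43.9%. Other genes had 45.5%, 44.9% and 43.4%. The median ratio of observed to expected CpG was 0.37 in the rises and 0.18 in the falls, and 0.30 and 0.18 in those of other genes. The control level also differed, with a median of 13.6 CPM in regions that rose and 55.1 CPM in those that fell. In other genes the medians were 17.3 and 60.5 CPM. A call is made from these same control values, so its direction and the control level are not independent. With a correction for GC content the counts upstream were 29 higher and 80 lower, of which 28 and 60 were also called without it. The part of region length, which differs with sharing, in these levels was not tested.

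Among the 291 unshared upstream regions, which have equal length, the median level in the controls was 36.6 CPM in microRNA genes and 29.6 CPM in other genes. In the knockouts the medians were 25.7 and 31.3 CPM. The unshared downstream regions had medians of 36.7 CPM in both groups, beside 32.1 and 34.9 CPM in other genes. MicroRNA genes held 1.84% and 1.75% of upstream reads in the controls and 1.18% and 1.42% in the knockouts, and 1.60% to 1.70% of downstream reads in all 4 libraries. The upstream total itself differed, at 7.86% and 8.43% of the reads of all 3 classes in the controls and 16.5% and 11.4% in the knockouts. Over the reads of all 3 classes the order turned, and the upstream regions of microRNA genes held 0.144% and 0.147% in the controls and 0.194% and 0.162% in the knockouts. Counting intervals (Wilson, 95%) of the upstream shares did not overlap even between libraries of the same group, so counting error does not measure the spread between libraries. With 2 libraries against 2 no exact permutation test of these shares can pass the threshold.

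The calls of host genes were set beside those of the microRNA genes they hold. Of the 46 genes that fell upstream and sit in a same-strand host, 30 had a host whose gene body fell, 1 a host whose body rose, 11 a host with no call and 4 a host that was not in the tables. Of the 19 that rose, 11 had a host whose body rose and 0 a host whose body fell. Of the 159 with no call, 21 had a host whose body rose and 21 a host whose body fell, and among all genes 23.1% of bodies rose and 15.2% fell. For the region upstream of the host, 12 of the 46 had a host that fell and 1 a host that rose. Of the 19, 8 had a host that rose there and 1 a host that fell, and of the 159, 41 had a host that rose and 11 a host that fell. Hairpins that share a host are counted singly here. Each hairpin lies inside its host, so its upstream region can lie partly or wholly within the host's gene body. The classes were counted separately, so the same reads can enter both calls, and their agreement is not a second observation. This also holds for the host gene bodies named above beside their microRNA genes.

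The genes of the microRNA machinery, which are not microRNA genes, had more rises than falls, as had all genes. Of 35 listed, 16 of 34 tested rose upstream (47.1%, against 24.0% of all genes) and 0 fell. Over the gene body 19 of 35 rose (54.3%, against 23.1%) and 1, Lin28b, a blocker of let-7 processing, fell. Downstream 5 of 29 rose (17.2%, against 10.8%) and 0 fell. The medians were 1.18, 1.12 and 0.29 in that order. The smallest p-values upstream were at Parn, an exonuclease (3.50 ± 0.61), Tnrc6b, an Argonaute partner (2.82 ± 0.53), Srsf3, a splicing factor that aids Drosha (2.82 ± 0.56), and Ncbp1, of the nuclear cap-binding complex (2.42 ± 0.50). Dgcr8 (1.62) and Xpo5 (1.59) rose upstream, while Drosha (0.66) and Dicer1 (0.35) had no call. The upstream calls of Parn, Tnrc6b and Srsf3 were lost without control replicate 1 (3.32, 2.62 and 2.63), control replicate 2 (3.71, 3.06 and 3.06) or knockout replicate 1 (2.57, 2.24 and 2.09), and that of Ncbp1 when any 1 library was left out (2.11 to 2.85).

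The 2 knockout libraries were not equally far from the controls. Knockout replicate 1 was above knockout replicate 2 at 30 of the 32 regions that rose upstream and 40 of the 41 that rose downstream, and below it at most of those that fell, being the higher at 9 of 78. Without knockout replicate 1 the median log2 fold of the 32 upstream rises was 1.83, against 2.42 with all libraries. Without it Mir24-2 was not tested, 0 of the 32 kept their call, all 31 tested kept their sign, and 30 microRNA genes were higher at an unadjusted p under 0.05. Leaving out control replicate 1, control replicate 2 or knockout replicate 2 left 3, 6 and 18 of the 32 rises called. Of the 78 falls, 0, 4, 0 and 0 remained without control replicate 1, control replicate 2, knockout replicate 1 and knockout replicate 2, and all 78 kept their sign each time. Downstream, 6, 16, 21 and 38 of the 41 rises and 0, 5, 5 and 8 of the 11 falls remained, in the same order of libraries.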

How the data were processed

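The authors deposited whole-number read counts per Entrez gene over 3 region classes, with a gene length column that is deposited in bp and was not used as a measurement. Per the submitters' processing notes, reads were counted with featureCounts on mm10. The sources used here do not give the aligner, annotation release, read filters or any spike-in. Over 27179 genes the deposited series tables and the files of single libraries differed in 0 values. Symbols (25275 genes, 93.0%), positions, hosts, unshared lengths and sequences came from RefSeq GRCm38.p6, the same build as mm10. The genes and lists were chosen with earlier results of these data known, so no list is independent evidence of its direction.

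The region classes were fitted separately with edgeR 4.0.16 in R 4.3.3: filterByExpr (minimum count 10, minimum total 15), TMM, the quasi-likelihood F-test, and Benjamini-Hochberg adjustment over all genes tested at 0.05. The SE of a log2 fold was taken as its absolute value over the root of its F statistic. CPM are TMM-scaled and not comparable between classes. The test was checked on simulated counts. Genes were named by rule: per region the 8 largest calls in each direction above the median level, the smallest p-values in each list, and their hosts; genes named for a shared seed, and Mir155, Mir150, Mir126a, Mir146 and Mir486, were added after their values were seen. Alternatives were other scalings, DESeq2 1.42.0, other filters, a replicate block, and each library left out. Counting intervals are exact or Wilson and cover counting error only.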

Additional observations from a re-analysis of the deposited data

How the results depend on the processing

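Upstream rises (32 in all) numbered 15 with a mean count of at least 50, 14 in regions holding no other start, 7 in unshared regions, and 0 to 18 with 1 library left out. Upstream falls (78) numbered 38 with the DESeq2 Wald test, 9 with pooled totals, 0 with receptor-gene factors, 21 with a mean count of at least 50, and 0 to 5 with 1 library left out. Downstream rises (41) numbered 19 with a mean count of at least 50 and 6 to 57 with 1 library left out. Downstream falls (11) numbered 6 with DESeq2 size factors, 17 with library totals, 0 with receptor-gene factors, 1 with the Wald test, 4 with no filter, 4 with a mean count of at least 50, 24 with the GC correction, and 0 to 26 with 1 library left out. Gene body rises (3) numbered 0 with the Wald test, 12 with no filter and 1 to 11 with 1 library left out; gene body falls (0) numbered 1 with no filter, 1 with the GC correction and 0 to 1 with 1 library left out. No gene named here reversed its direction in a called region. The GC correction, the crossed pairing, the restriction to unshared regions and the matching of Mir146 and Mir486 were chosen after seeing the data. Apart from settings that test fewer genes or samples, the cause of these shifts was not tested.

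The labels give both groups the same replicate numbers but do not say that a number marks a shared animal or day. Deviations of same-numbered libraries correlated at -0.28 upstream, -0.36 over gene bodies and -0.22 downstream. With a replicate block the upstream rises numbered 25 and falls 22, and the downstream rises 34 and falls 6. With the crossed pairing these numbered 38, 125, 61 and 33.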
